A study of Caenorhabditis elegans with 2 samples.

Results

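Galectins are lectins that bind galactose-containing sugars on proteins and lipids. The galectin genes described here are lec-1, lec-2, lec-3, lec-4, lec-5, lec-6, lec-8, lec-9, lec-10 and lec-11 of Caenorhabditis elegans. They were chosen by name, as 10 of the 46135 genes in the deposited table, and all 10 have a row there. RNA of whole larvae was sequenced after removal of ribosomal RNA. One library came from larvae with the lsm-1(tm3585) allele, a mutation of a subunit of the cytoplasmic Lsm ring that promotes mRNA decapping and decay. The other came from N2, the wild-type strain, to which the mutant line had been backcrossed. Both populations were synchronised as L1 larvae, grown for 26 hours at 25 °C and labelled as L3 stage. With 1 library per genotype there is no spread between replicates, so differences below have a counting error but no replicate check.

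Each galectin is built from a conserved sugar-binding fold, the carbohydrate-recognition domain. C. elegans has tandem-repeat galectins, in which paired domains lie in 1 chain, and single-domain galectins. The proteins lack a classical secretion signal, as galectins do in other animals, and act inside cells and on cell surfaces. In this worm, galectin ligands include N-glycans that carry a galactose-fucose unit on their core, and glycolipids of the intestinal surface that are also bound by crystal toxins of Bacillus thuringiensis. LEC-1, the first galectin described in the worm, is a tandem-repeat protein of the pharynx and cuticle. LEC-2, LEC-3, LEC-4 and LEC-5 belong to the same tandem-repeat type. LEC-6 and LEC-8 to LEC-11 are of the single-domain type.

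All 10 galectin transcripts had a higher FPKM (a fragment count corrected for transcript length and library depth) in the lsm-1(tm3585) library than in the N2 library, by factors from 1.08 for lec-6 to 3.60 for lec-11. The libraries as a whole were shifted the same way. The median difference in log2(FPKM + 1) was 0.24 over 14838 measured genes, those reaching 1 FPKM in the mutant, in N2 or in both, and 0.67 over the 10 galectin genes. Relative to that shift, 9 of the 10 lay above the median of measured genes and lec-6 lay below it. The values that follow are therefore given both as they stand and against the shift.

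From the spacing of low FPKM values, the depth was estimated at 9.06 M fragments in the lsm-1(tm3585) library and 7.41 M in the N2 library. The lsm-1 transcript had 5.94 FPKM in the mutant and 10.2 FPKM in N2, without passing the test of the authors' deposited table (q = 0.457). A gene-wide FPKM may not show the loss of only some of its bases. An FPKM of exactly 0 occurred in 1 library for 2554 of the measured genes and can be a failed estimate. All 10 galectin genes were above 0 in all 4 deposited FPKM columns, and all 10 reached 5 FPKM in at least 1 library.

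Among the single-domain galectins, lec-11 (F38A5.3, chromosome IV) differed most. It had 35.2 FPKM in the lsm-1(tm3585) library and 9.79 FPKM in the N2 library. These levels correspond to an estimated 245 fragments in the mutant and 55.7 in N2. The ratio was 3.60, with a 95% counting interval from 2.67 to 4.87. The difference in log2(FPKM + 1) was 1.75, above that of 92.6% of measured genes and of 99.0% of those above 0 in all 4 columns. Only lec-11 among the 10 passed the test of the authors' deposited table, with a log2 fold change of 1.85 and q = 0.00187. That test sets the reads of these 2 libraries against each other, and so it compares the libraries and not the genotypes.

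The gene lec-10 (W01A11.4, chromosome V) came next. Its level was 32.5 FPKM in the mutant library and 12.5 FPKM in the N2 library, a ratio of 2.59 with a counting interval from 1.98 to 3.38. The difference was 1.31, and the gene did not pass the authors' test in the deposited table (p = 0.00313, q = 0.0723). The levels of lec-10 and lec-11 were close to each other within each library, and their counting intervals overlapped in both. lec-11 stood above lec-10 in the mutant and below it in N2.

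The gene lec-8 (R07B1.10, chromosome X) encodes a galectin that binds the glycolipids targeted by the crystal toxin. It had 18.1 FPKM in the mutant and 8.54 FPKM in N2. The ratio of 2.12 had a counting interval from 1.48 to 3.14. On the log2(FPKM + 1) scale the difference was 0.99994, just short of the limit of 1 that defines a 2-fold difference here. The authors' deposited table lists it with p = 0.0195 and q = 0.235.

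The gene lec-9 (C16H3.2, chromosome X) was the third most abundant galectin transcript in both libraries, at 72 FPKM in the mutant and 43.4 FPKM in N2. Its ratio was 1.66, with a counting interval from 1.38 to 2.01. It did not pass the test of the authors' deposited table (p = 0.0437, q = 0.329).

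The gene lec-6 (Y55B1AR.1, chromosome III) had the smallest difference of the 10. Its product is the single-domain galectin that binds the galactose-fucose unit of N-glycans. It was the most abundant galectin transcript in each library, at 171 FPKM in the mutant and 158 FPKM in N2. The ratio of 1.08 had a counting interval from 0.972 to 1.199, the only 1 among the 10 that held 1. Of 5803 coding genes at 5 FPKM or more, above 0 in all 4 columns and with at least 1 estimated fragment in each library, 40.5% had an interval that held 1. The difference of 0.11 became -0.13 after the median of measured genes was subtracted, so its direction depends on the scaling. Its interval also lay wholly below 1.23, the median FPKM ratio of the 12284 measured genes above 0 in both libraries. Its q-value in the authors' deposited table was 0.943.

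**Figure D1:**
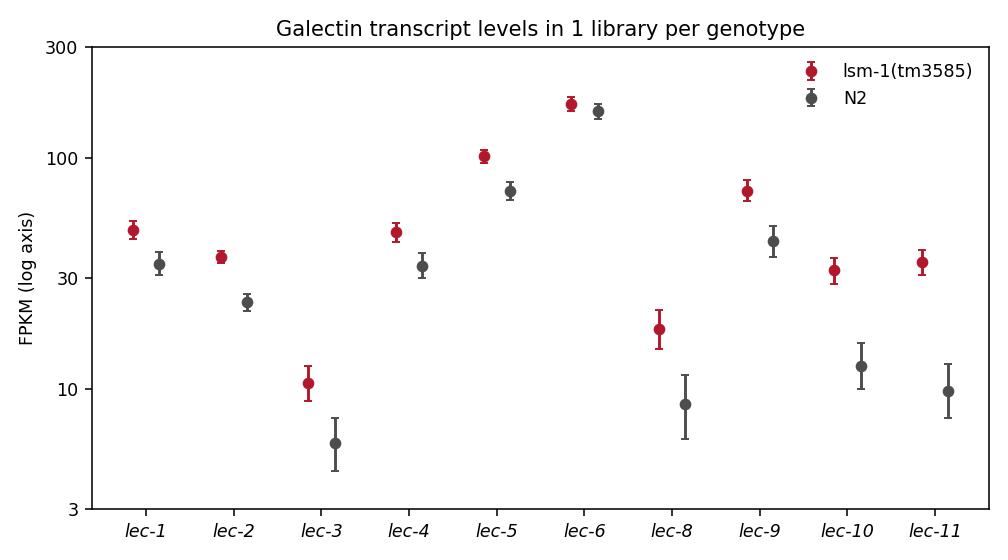
FPKM of the 10 galectin genes (log axis) in the lsm-1(tm3585) library (red) and the N2 library (grey), with bars for the 95% counting interval from the estimated fragments. The 2 points of lec-6 are the closest pair, at 171 FPKM in the mutant and 158 FPKM in N2, and those of lec-11 are the farthest apart, at 35.2 FPKM in the mutant and 9.79 FPKM in N2.

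The 5 listed tandem-repeat galectin genes kept closer together. The level of lec-1 (W09H1.6, chromosome II) was 48.7 FPKM in the mutant and 34.7 FPKM in N2, a ratio of 1.40 with a counting interval from 1.21 to 1.62. For lec-4 (C44F1.3, chromosome III) it was 47.6 FPKM in the mutant and 34.0 FPKM in N2, a ratio of 1.40 from 1.196 to 1.64. For lec-5 (ZK1248.16, chromosome II) it was 101 FPKM in the mutant and 71.7 FPKM in N2, a ratio of 1.41 from 1.27 to 1.57. These 3 ratios lay within each other's counting error although lec-5 was the most abundant of them in each library. The intervals of lec-1 and lec-4 held the median ratio of 1.23, so at this depth they could not be told from the general shift. None of the 3 passed the authors' test in the deposited table, with q-values from 0.517 for lec-1 to 0.605 for lec-4.

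The remaining tandem-repeat genes, lec-2 and lec-3, have several annotated transcripts and are less certain. The level of lec-2 (F52H3.7, chromosome II) was 37.0 FPKM in the mutant and 23.6 FPKM in N2, a ratio of 1.57 with an interval from 1.42 to 1.74. The authors' deposited table marks its test as failed, so no fold change or p-value from that table is given. The annotation gives lec-2 4 transcripts of 1170 to 4323 bases, so an FPKM over the gene depends on how reads were assigned among them.

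The gene lec-3 (ZK892.1, chromosome II) had the lowest level of the 10 in both libraries, at 10.5 FPKM in the mutant and 5.80 FPKM in N2. In N2 its interval overlapped that of lec-8 and, narrowly, that of lec-11. Its ratio of 1.82 had an interval from 1.33 to 2.54. The authors' deposited table gives it p = 0.734 and q = 0.914. The annotation lists 9 transcripts for lec-3, from 580 to 2044 bases. The interval uses their mean length of 1360 bases and would be wider if shorter transcripts prevailed. Of the exon bases of lec-3, 17 are shared with nlt-1 on the opposite strand. The level of nlt-1 was 53.9 FPKM in the mutant and 53.2 FPKM in N2. The non-coding gene ZK892.9 also overlaps lec-3 without shared exon bases, at 23.6 FPKM in the mutant and listed at 0 in N2. Whether reads were shared with lec-3 was not tested.

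By the size rule, a difference of at least 1 in log2(FPKM + 1), lec-10 and lec-11 were higher in the mutant, 2 of the 10 galectin genes, and 0 galectin genes were lower. Over all measured genes 13.6% were higher and 12.2% were lower by this rule. Many of those are listed at 0 in 1 library and pass it for that reason. Among the 11804 measured genes above 0 in all 4 columns, where every galectin gene belongs, 6.57% were higher and 3.86% were lower. With an FPKM of at least 5 as a further limit the shares were 8.95% and 3.96%. After subtracting the median, the same 2 galectin genes remained past the limit, at 1.07 for lec-10 and 1.51 for lec-11, against 3.54% of the 11804 genes. A difference above 0 was found for 10 of 10 galectin genes and 67.5% of the 11804 genes, and a difference above the median for 9 of 10 and 50.3%. Of the 10 counting intervals, 7 lay above the median ratio of 1.23, 2 held it (lec-1 and lec-4) and 1 lay below it (lec-6). Of the 5803 coding genes, 25.2% lay above that ratio and 18.4% below it. An interval narrows with the number of fragments, and these genes were not matched to the galectin genes in level. The ratio of 1.23 was taken over genes from 1 FPKM up. Over the 8083 genes reaching 5 FPKM the median difference was 0.34, against 0.24 over all measured genes. The differences of lec-1, lec-4 and lec-5, at 0.48, 0.47 and 0.49, stand closer to 0.34. The lower bound of lec-5, 1.27, was not compared with a median ratio at that level, so its place above the shift is uncertain. The 7 also include lec-2 and lec-3, whose intervals rest on a mean length over several transcripts, so their places are less certain.

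**Figure D2:**
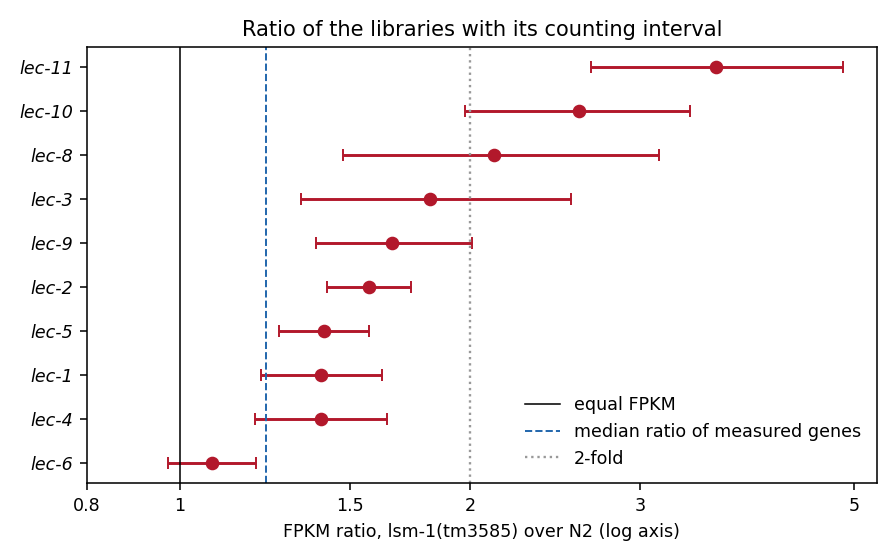
FPKM ratio of the lsm-1(tm3585) library over the N2 library for each galectin gene (log axis), with the 95% counting interval; the solid line marks equal FPKM, the dashed line the median ratio of 1.23 and the dotted line 2-fold. Only the interval of lec-6 crosses the solid line, and only that of lec-11 lies wholly beyond 2-fold.

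**Figure D3:**
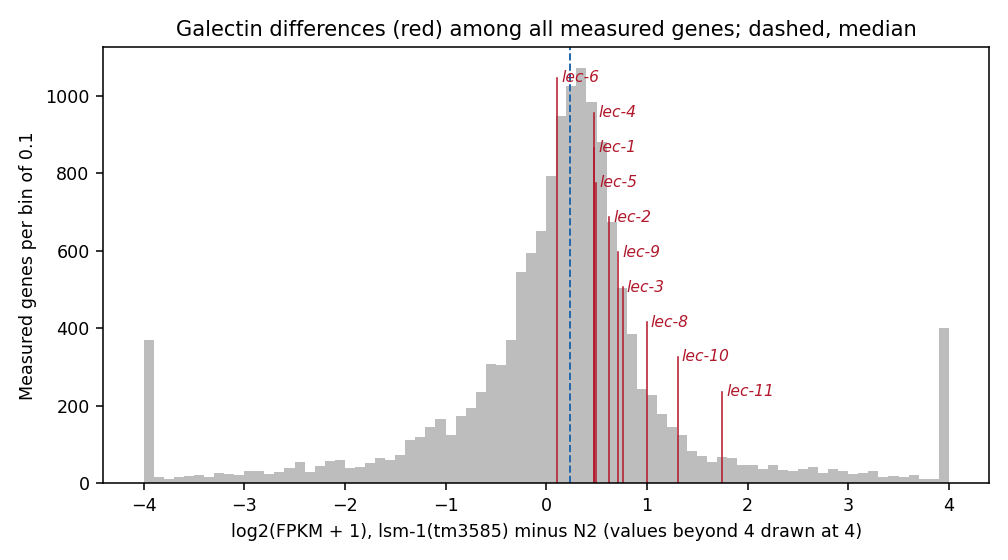
Number of measured genes by difference in log2(FPKM + 1), lsm-1(tm3585) minus N2, with the 10 galectin genes as red lines and the median of 0.24 dashed. The line of lec-6 stands left of the median at 0.11, and the other 9 stand right of it, from lec-4 at 0.47 to lec-11 at 1.75.

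A usable test was given for 9 of the 10 galectin genes in the authors' deposited table, and 1 of them, lec-11, was past it. Of all 17570 genes with a usable test, 3.76% were past it, 2.35% as higher and 1.41% as lower in the mutant. The authors' deposited table lists an unadjusted p-value under 0.05 for 4 of the 9 (lec-8, lec-9, lec-10 and lec-11), which are all single-domain genes, and for 14.2% of the 17570.

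Within the family the order of levels was nearly the same in both libraries. lec-6 came first, followed by lec-5, lec-9, lec-1, lec-4 and lec-2. lec-8 and lec-3 came last. Only lec-10 and lec-11 exchanged places. By counting intervals, lec-1 could not be told from lec-4 in either library, nor lec-11 from lec-10. In the mutant lec-2 also overlapped with lec-11 and lec-10. In N2 lec-9 overlapped with lec-1 and lec-4, lec-8 with lec-10, lec-11 and lec-3, and lec-11 narrowly with lec-3.

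The makeup of the family does not depend on how the libraries are scaled to each other. The summed FPKM of the 10 genes was 574 in the mutant and 403 in N2, a ratio of 1.42. lec-6 made up 29.8% of the sum in the mutant and 39.3% in N2. lec-11 made up 6.14% in the mutant and 2.43% in N2, and lec-10 5.66% in the mutant and 3.11% in N2. The share of lec-8 was 3.15% in the mutant and 2.12% in N2, and that of lec-9 12.6% in the mutant and 10.8% in N2. Among the tandem-repeat genes lec-2 made up 6.46% in the mutant and 5.86% in N2, and lec-3 1.84% in the mutant and 1.44% in N2. The shares of lec-1, lec-4 and lec-5 were nearly equal in both libraries, at 8.49%, 8.30% and 17.6% in the mutant and 8.63%, 8.44% and 17.8% in N2. Without lec-6 the sums of the other 9 genes were 403 in the mutant and 244 in N2, a ratio of 1.65.

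**Figure D4:**
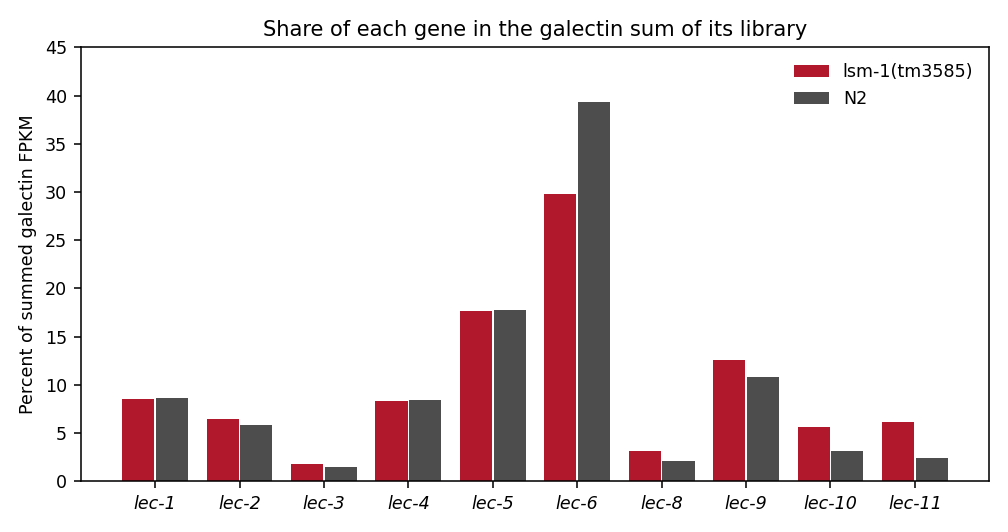
Percent of the summed galectin FPKM contributed by each gene in the lsm-1(tm3585) library (red) and the N2 library (grey). lec-6 makes up 29.8% in the mutant and 39.3% in N2, while lec-2, lec-3, lec-8, lec-9, lec-10 and lec-11 take larger shares in the mutant.

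Set side by side, the listed genes of the structural types differed in how widely they spread. Among the 6 genes with 1 annotated transcript, the tandem-repeat proteins had 283 residues (LEC-4) and 314 (LEC-5). The single-domain proteins had 146 (LEC-6), 180 (LEC-8), 140 (LEC-9) and 192 (LEC-10). LEC-11, whose gene has 2 annotated transcripts with 1 of them coding, has 232 residues, between LEC-10 and LEC-4. The types were not assigned from sequences here. The 5 tandem-repeat genes had differences from 0.47 to 0.76 with a median of 0.49. The gene lec-12 was not listed and was not assigned to a type here. Its longest annotated protein has 340 residues, and its difference was 0.06. Counted as a tandem-repeat gene, it would widen that range downward. The 5 single-domain genes ranged from 0.11 to 1.75 with a median of 0.99994, the value of lec-8. The summed FPKM of the types had nearly the same ratio, 1.44 for the tandem-repeat genes (245 in the mutant, 170 in N2) and 1.41 for the single-domain genes (329 in the mutant, 233 in N2). lec-6 is the most abundant member of the single-domain sum in both libraries, at 171 of the 329 FPKM in the mutant and 158 of the 233 in N2. The single-domain ratio therefore rests largely on lec-6, whose own ratio of 1.08 was the lowest of the 5. With 1 library per genotype the difference between the types was not tested.

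The table holds a pair of galectin genes besides the 10. lec-7 (R07B1.2, chromosome X) is the annotated neighbour of lec-8 on the same strand. It was given 4.61 FPKM in the mutant and listed at 0 in N2, and in the authors' deposited table it was past the test (q = 0.0055). The further FPKM pair lists lec-7 at 0 in both libraries, so no fold is given. lec-12 (DC2.3, chromosome V) had 15.01 FPKM in the mutant and 14.3 FPKM in N2, a ratio of 1.05 with a counting interval from 0.747 to 1.48.

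The 10 galectin genes lie on 5 chromosomes and have 12 distinct measured protein-coding neighbours, with a median difference of 0.38. By the size rule 2 were higher in the mutant, vab-15 (2.50 FPKM in the mutant, 0.491 FPKM in N2) and lec-7, against 13.6% of all measured genes. Both flank lec-8. The neighbours of lec-10 were unc-83, at 17.8 FPKM in the mutant and 10.6 FPKM in N2, and cpt-6, at 2.44 FPKM in the mutant and 1.12 FPKM in N2. Beside lec-11, F38A5.2 had 14.3 FPKM in the mutant and 10.5 FPKM in N2. The gene dnj-11 overlaps lec-11 on the opposite strand by 3 exon bases, was listed at 0 in both libraries and has a failed test in the authors' deposited table. Whether reads of dnj-11 were assigned to lec-11 was not tested.

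Genes for the making, supply and removal of the sugars that galectins bind were taken as context, 41 genes in 5 groups. Of these, 35 were measured and 26 of them were above 0 in all 4 columns. None of the 26 was higher or lower by the size rule, against 6.57% higher and 3.86% lower of the 11804 genes that meet the same limits. Their median difference was 0.26, near the 0.24 of all measured genes. All 8 glycan genes past the size rule, 5 higher and 3 lower of the 35, were listed at 0 in 1 library. Over all measured genes the shares were 13.6% higher and 12.2% lower. Of 32 glycan genes with a usable test the authors' deposited table called 3 as higher and 1 as lower. Over all genes with a usable test these shares were 2.35% and 1.41%.

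Of the 15 genes for the galactose-fucose unit of N-glycans, 12 were measured. By the size rule 0 differed, and 0 were called in the authors' deposited table. The galactosyltransferase gene galt-1 was barely detected, at 0.640 FPKM in the mutant and 0.586 FPKM in N2. The core fucosyltransferase gene fut-8 had 1.99 FPKM in the mutant and 1.48 FPKM in N2. The highest difference was that of gly-13, an N-acetylglucosaminyltransferase gene, at 6.17 FPKM in the mutant and 3.19 FPKM in N2 (0.78). The lowest among measured genes was samt-1, at 10.5 FPKM in the mutant and 10.3 FPKM in N2 (0.02).

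Of the 7 glycolipid genes, which include the bre genes that make the toxin-binding glycolipids, 6 were measured. In that group bre-3, which encodes a glycosyltransferase, was called in the authors' deposited table, at 18.0 FPKM in the mutant and listed at 0 in N2. bre-5 was listed at 4.39 FPKM in the mutant and 0 in N2. The ceramide glucosyltransferase genes cgt-1 and cgt-3 had the opposite pattern, with 0 listed for both in the mutant, against 6.17 FPKM for cgt-1 and 14.8 FPKM for cgt-3 in N2. Only bre-4, at 2.11 FPKM in the mutant and 1.86 FPKM in N2, and cgt-2, at 0.954 FPKM in the mutant and 1.23 FPKM in N2, had values in both libraries. The authors' deposited table marks the tests of bre-5 and cgt-1 as failed, and the further pair lists cgt-3 at 0 in both libraries.

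For the supply and removal of galactose, gale-1, the UDP-galactose epimerase gene, had 28.3 FPKM in the mutant and 17.5 FPKM in N2. The alpha-galactosidase gene gana-1 had 22.4 FPKM in the mutant and 13.2 FPKM in N2. The nucleotide sugar transporter gene srf-3 was lower, at 13.5 FPKM in the mutant and 17.8 FPKM in N2. ugtp-1 was listed at 8.69 FPKM in the mutant and 0 in N2. None of the 5 genes was called in the authors' deposited table.

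In the proteoglycan group of 9 genes 7 were measured. The galactosyltransferase genes of the linker went opposite ways in the authors' deposited table. sqv-2 was past the test with 5.12 FPKM in the mutant and 0 in N2, and sqv-3 was past it with 0 in the mutant and 2.37 FPKM in N2. In the further pair sqv-3 was listed at 0 in both libraries. The 5 members above 0 in all columns ran from sqv-6, at 5.64 FPKM in the mutant and 4.96 FPKM in N2, to sqv-8, at 8.91 FPKM in the mutant and 5.77 FPKM in N2. Of the 5 surface glycosylation genes, bus-2 was past the test of the authors' deposited table with 1.78 FPKM in the mutant and 0 in N2. The highest of the others was bus-8, at 7.198 FPKM in the mutant and 4.25 FPKM in N2, and the lowest was bus-4, at 7.50 FPKM in the mutant and 9.70 FPKM in N2.

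**Figure D5:**
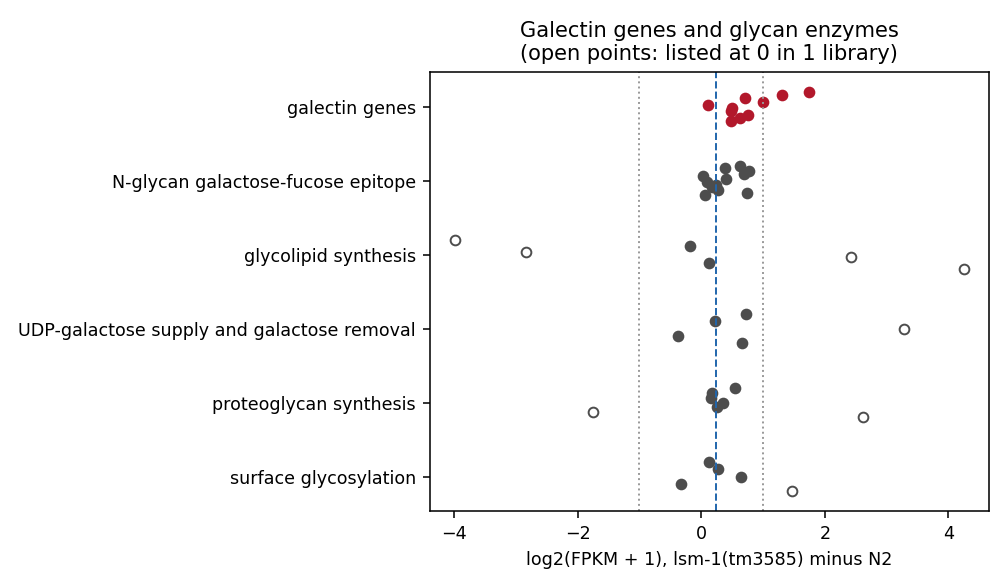
Difference in log2(FPKM + 1), lsm-1(tm3585) minus N2, for the 10 galectin genes (red) and the measured genes of 5 glycan groups (grey); open points are listed at 0 in 1 library, dotted lines mark a difference of 1 either way and the dashed line the median of 0.24. Every filled grey point lies between the dotted lines, while lec-10 and lec-11 lie beyond.

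Whole larvae were measured, so more cells of a type and more RNA per cell cannot be told apart. Marker lists for 6 tissues are given beside the galectin values. Their counts by the size rule stand against 13.6% of all measured genes higher and 12.2% lower. The summed level of 8 epidermis and seam genes was 222 FPKM in the mutant and 116 FPKM in N2, with 4 of 8 higher and 1 (nhr-23, listed at 0 in the mutant) lower by the size rule. The further pair lists nhr-23 and lin-26, which is among the 4, at 0 in both libraries. Of the 6 above 0 in all 4 columns 3 were higher and 0 lower, against 6.57% and 3.86% of all such genes. Of 7 intestine genes in the table the sum was 344 in the mutant and 271 in N2, with 0 of 6 measured past the rule and ges-1 listed at 0 in both. The pharynx sum was 44.5 in the mutant and 25.6 in N2 (1 of 7 measured genes higher, phat-3, listed at 0 in N2). The neuron sum was 148 in the mutant and 90.0 in N2 (2 of 8 higher, rab-3 and sbt-1, both listed at 0 in N2). The further pair lists rab-3 and sbt-1 at 0 in both libraries, and the test of rab-3 is marked as failed. Body wall muscle genes summed to 765 in the mutant and 561 in N2, with 2 of 6 measured higher and unc-15 and lev-11 listed at 0 in both. Germ line genes summed to 33.5 in the mutant and 51.8 in N2, with 1 of 7 measured lower and 0 of 7 above 0 in difference. These 7 germ line genes and the 6 measured muscle genes were all above 0 in all 4 columns. Of all such genes 6.57% were higher and 3.86% lower by the size rule, and 67.5% had a difference above 0. The part of these marker levels in the galectin values was not tested.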

How the data were processed

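RNA from whole L3 larvae was measured in 1 lsm-1(tm3585) and 1 N2 library, rRNA-depleted and made with a TruSeq RNA kit per the labels' protocols. TopHat, Cufflinks and Cuffdiff are named, without versions, in the submitters' processing notes. The sources used here state neither build nor annotation nor strand setting, and coordinates are therefore left out. The authors deposited 2 pairs of FPKM columns for 46135 genes. The first pair, beside the test, gave every level and difference. The further pair, lower by a median factor of 1.14, entered the limit to genes above 0 in all 4 columns and served as an alternative. For each gene the authors deposited in addition a call, a log2 fold change (mutant over N2), its p-value and its q-value.

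Here, log2(FPKM + 1) in lsm-1(tm3585) minus N2 was computed with Python 3.11.15, numpy 2.4.6, pandas 2.3.3 and scipy 1.17.1. The pseudocount of 1 understates differences at low levels. Measured genes had 1 FPKM or more in at least 1 library. The size rule was a difference of at least 1 either way. No p-value was computed. Depth came from the first FPKM pair alone, from low values of 4845 genes with 1 transcript. At a depth ratio of 1.22, 43.6% of their ratios lay within 0.3% of a ratio of whole numbers up to 6, against 1.92% at other depth ratios. Fragments are FPKM times mean coding-transcript length times depth. Intervals (95%, exact Clopper-Pearson for ratios, exact Poisson for levels) cover counting error only. These steps were run on simulated counts for genes with 1 transcript, turned into FPKM by the same formula. That run cannot check them for genes with several transcripts or for the submitters' own FPKM estimates.

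Members were matched by symbol. Transcript numbers and lengths, neighbours and overlaps come from Ensembl release 115 (WBcel235), and 2 list genes (samt-1 and bgal-1) were matched by gene ID through RefSeq. Members and lists were chosen with earlier results of these data known. Every member was named, and from each glycan list those past the size rule or the deposited call and both ends; galt-1, fut-8, bre-4, cgt-2, gale-1, gana-1 and the neighbours were added after their values were seen. No genes of like pattern were sought, since 2 libraries cannot define one. Sequences were not analysed here, so the planned protein and promoter comparisons were not made, and similarity between members as a source of shared reads was not examined.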

Additional observations from a re-analysis of the deposited data

How the results depend on the processing

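The galectin results were recomputed under 8 other settings, of which the plain FPKM ratio was chosen after seeing the data. Members higher by the size rule numbered 2 or 3, the third being lec-8 at up to 1.08 with a pseudocount of 0.1 or with the plain ratio, and none was lower in any. The share of all genes higher by the rule was 18.2% with that pseudocount and 13% with the plain ratio, against 13.6% as reported. The median difference of 0.67 ranged from 0.44, when centred on all measured genes, to 0.69. In 5 of the settings a member's value can change, since the others alter only which genes are counted. There 45 of 50 member values stayed within the counting interval. The other 5 (lec-1, lec-2, lec-4, lec-5 and lec-6) all came from centring, and lec-6 turned negative with centring (-0.13) and with equal FPKM sums (-0.02). The glycan genes past the size rule depended on values listed at 0. With an FPKM of at least 5, 3 in place of 5 were higher, where 16% of all genes were higher. Among genes above 0 in every column 0 were higher and 0 lower, against 6.57% and 3.86% of all such genes. No paired analysis was possible because each genotype has 1 library, and for the same reason no replicate could be left out. The depths limit lec-3, lec-8, lec-10 and lec-11 most, with 41.4 to 74.5 estimated fragments each in N2.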

Other observations

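The C-type lectins are another lectin family of the worm, with many members linked to immunity. Of 265 clec genes in the table, 78 were measured and above 0 in all 4 FPKM columns. By the size rule 5 of these were higher and 11 were lower in lsm-1(tm3585) than in N2, and 37 had a difference above 0. Over all 11804 genes that meet the same limits the shares were 6.57% higher, 3.86% lower and 67.5% above 0. The median difference of the 78 clec genes in log2(FPKM + 1) was -0.06, against 0.67 for the 10 galectin genes and 0.24 for all measured genes. The difference between the families was not tested.

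In the further FPKM pair lec-6 was at 148 FPKM in the mutant and 144 FPKM in N2, a difference of 0.03.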
